A study of Mus musculus with 25 samples.

Results

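Genes of glycolysis and of the response to low oxygen were followed in growing mouse myoblasts that lacked MyoD or p53. The set was a list of 32 gene symbols, and its members were all probe sets annotated with exactly 1 of these symbols. Of the 32 genes, 30 had such a probe set, out of 15965 genes with one on the chips, while Gpi1 and Eno1 had none and were not analysed here. The 30 genes had 74 of the 36899 probe sets, of which 18 were hybridisation controls for Gapdh. Of the other 56 probe sets, 44 passed the filter on low signal and were tested, and these covered 27 genes. Aldoc and Epas1 fell below the filter, and Gapdh was measured by control probe sets alone, which were not tested.

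The cells were cultured progeny of satellite cells, the stem cells of skeletal muscle, from wild-type, MyoD-/- and p53-/- mice. MyoD is a transcription factor that commits cells to muscle, and p53 is a transcription factor that responds to stress and DNA damage. All 3 genotypes grew on collagen in Ham's medium that held bFGF, a growth factor, at 4 ng/ml and fetal calf serum at 20%, and no differentiation or hypoxia treatment is named in the labels. Each genotype had 3 RNA samples, A, B and C, hybridised to the Affymetrix chip types U74Av2 and U74Cv2, while U74Bv2 had 3 wild-type, 3 MyoD-/- and 1 p53-/- array (sample A). Preplating and serial passage gave a purity above 98%, judged by desmin, Myf5 and MyoD in wild type and by Myf5 and c-met in both knockouts. The age and strain of the mice, the allele of each knockout and whether the letters stand for separate mice or cultures are not stated in the sources used. P-values therefore measure the spread between these samples, which may be technical.

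Glycolysis turns glucose into pyruvate, which is either reduced to lactate in the cytosol or oxidised in mitochondria. When oxygen is low, the hypoxia-inducible factors HIF1A and EPAS1 escape hydroxylation by the EGLN prolyl hydroxylases, accumulate and bind a short core sequence in the promoters of many glycolytic genes. The same factors raise genes of blood vessel growth, mitophagy and collagen maturation, and Egln3 is itself one of their targets in many cell types. In muscle, glycolytic enzymes have both widely used and muscle-specific isoforms, and the latter rise as myoblasts differentiate.

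The array median signal ran from 455 to 776 and the 3' to 5' ratio of the Gapdh controls from 0.719 to 0.946. Myod1 signal was 37440, 40169 and 45187 in wild type A, B and C, 5352, 4024 and 5152 in MyoD-/- and 23450, 24450 and 18504 in p53-/-. Whether this probe set lies in the deleted part of the gene is not stated. Cdkn1a, a direct target of p53, fell by 2.40 ± 0.25 (SE) on the log2 scale in p53-/- (adjusted p = 0.000786, limma). On U74Cv2 the recorded chip lots did not let lot and genotype be told apart in comparisons with wild type. The scanner record of the U74Cv2 array labelled MyoD-/- B gave the letter A but the sample code of MyoD-/- B.

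Promoters of 6 members, picked by hand from those called in MyoD-/- or p53-/-, are given here as the 250 bases upstream of the RefSeq transcript start. They are on assembly GRCm38.p6, 5′ to 3′ on the strand of the gene. Capitals mark every ACGTG or GCGTG, the core that hypoxia-inducible factors can bind, read on either strand (CACGT or CACGC on the other). Egln3 lay at chr12:54203875-54204124 on the minus strand. The others lay on the plus strand, P4ha1 at chr10:59323046-59323295, Pdk1 at chr2:71872974-71873223, Slc16a3 at chr11:120948817-120949066, Pgk1 at chrX:106186850-106187099 and Slc16a1 at chr3:104638414-104638663.
Egln3: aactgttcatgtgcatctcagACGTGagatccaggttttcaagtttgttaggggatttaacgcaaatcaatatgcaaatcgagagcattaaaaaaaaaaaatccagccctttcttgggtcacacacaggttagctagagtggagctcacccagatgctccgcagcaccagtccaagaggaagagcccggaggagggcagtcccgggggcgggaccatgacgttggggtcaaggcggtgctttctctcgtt
P4ha1: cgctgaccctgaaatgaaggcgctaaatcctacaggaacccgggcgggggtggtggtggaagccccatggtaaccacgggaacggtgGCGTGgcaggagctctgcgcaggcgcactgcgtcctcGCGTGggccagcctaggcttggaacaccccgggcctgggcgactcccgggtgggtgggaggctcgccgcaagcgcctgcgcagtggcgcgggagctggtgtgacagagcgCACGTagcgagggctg
Pdk1: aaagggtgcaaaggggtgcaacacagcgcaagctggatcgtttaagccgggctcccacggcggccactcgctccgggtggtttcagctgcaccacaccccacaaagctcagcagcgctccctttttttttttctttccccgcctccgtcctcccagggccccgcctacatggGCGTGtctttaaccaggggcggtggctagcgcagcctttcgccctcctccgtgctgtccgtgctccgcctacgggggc
Slc16a3: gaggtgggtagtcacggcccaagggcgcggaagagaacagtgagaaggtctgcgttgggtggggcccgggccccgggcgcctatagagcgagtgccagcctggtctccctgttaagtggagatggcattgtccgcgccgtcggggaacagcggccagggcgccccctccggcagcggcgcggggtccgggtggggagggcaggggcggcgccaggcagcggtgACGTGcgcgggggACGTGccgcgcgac
Pgk1: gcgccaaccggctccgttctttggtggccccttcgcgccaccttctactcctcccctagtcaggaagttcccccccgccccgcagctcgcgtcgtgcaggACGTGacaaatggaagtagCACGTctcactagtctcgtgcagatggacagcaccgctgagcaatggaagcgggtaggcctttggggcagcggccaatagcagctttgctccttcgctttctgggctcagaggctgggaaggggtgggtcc
Slc16a1: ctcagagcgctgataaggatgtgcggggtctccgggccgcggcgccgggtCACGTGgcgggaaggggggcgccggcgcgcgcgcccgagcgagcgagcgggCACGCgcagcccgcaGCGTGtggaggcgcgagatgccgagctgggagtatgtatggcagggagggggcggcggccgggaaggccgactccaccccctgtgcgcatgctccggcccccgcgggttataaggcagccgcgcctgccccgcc
A core stood in 22 of 29 member promoters (75.9%) and in 38.6% of all 32851 promoter windows of that length. Slc2a3, Epas1 and Ndrg1 had no window in the table used here. Of the 10 members that were higher in MyoD-/- than in wild type, 8 had a core, while Tpi1 and Eno2 had none. A core also stood in 11 of the 15 tested members that were not higher and had a window. Slc16a1 had 4 cores, of which 2 overlap in a CACGTG, P4ha1 had 3, Slc16a3 and Pgk1 had 2 each, and Egln3 and Pdk1 had 1 each. CAGCTG, an E-box read by muscle bHLH factors such as MyoD, stood in 4 of the 29 member promoters against 13.0% of all windows, and CAGGTG stood in 2 against 17.2%. CACGTG, an E-box that contains the hypoxia core, stood in 5 of the 29 against 6.02%. These matches describe letters in a window and were not tested as binding sites.

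The first comparison asked how the members change when MyoD is missing. Of the 27 members tested against wild type, 10 were higher in MyoD-/-, 1 was lower and 16 did not pass the test. Over all 12060 genes tested, 6.14% were higher and 6.82% lower by the same rule, an adjusted p under 0.05. The 10 higher members were the glycolytic enzymes Pfkl, Pfkp, Tpi1, Pgk1, Pgam1 and Eno2, the lactate exporter Slc16a3, the kinase Pdk1, the mitophagy receptor Bnip3 and the collagen hydroxylase P4ha1. The lower member was the oxygen sensor Egln3. The median log2 fold change was 0.28 over the members and 0.00 over all genes, and its leave-one-out range was 0.15 to 0.41. No array of either genotype crossed into the range of the other for 12 members that were higher and 3 that were lower, against 15.3% and 16.2% of all genes. With bulk RNA, more cells of a type and more RNA per cell cannot be told apart for any of these genes.

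Without p53, fewer members passed the test. Of 26 members tested, Pfkp, Pgk1, Pgam1 and Slc16a1 were higher in p53-/- than in wild type and none was lower (adjusted p under 0.05, limma). Over all 9013 genes, 6.06% were higher and 6.52% lower. At an unadjusted p under 0.05, 8 members were higher and Aldoa, Vegfa and Adm were lower. The share of all genes by this looser rule is not given, here or below, so such counts have no background beside them. The count of 4 became 1 when p53-/- A was left out, and the member still called was Pgam1. The share of all genes called without that sample is not given. The median over the members was 0.03, beside -0.01 over all genes. Arrays did not overlap for 7 members higher and 3 lower in p53-/-, against 17.6% and 16.9% of all genes.

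The knockouts were then set directly against each other, since both other comparisons share the wild-type arrays. Pfkl, Tpi1, Eno2, Pdk1, Bnip3 and P4ha1 were higher in MyoD-/- than in p53-/-, which is 6 of 26 members against 7.66% of all genes. Slc16a1 and Egln3 were lower, which is 2 of 26 against 8.43%. The median log2 difference was 0.22 over the members and 0.00 over all genes. Arrays did not overlap for 9 members higher and 3 lower in MyoD-/-, against 16.1% and 18.5% of all genes. Slc16a3 could not enter this comparison, because its chip type held 1 p53-/- array.

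**Figure D1:**
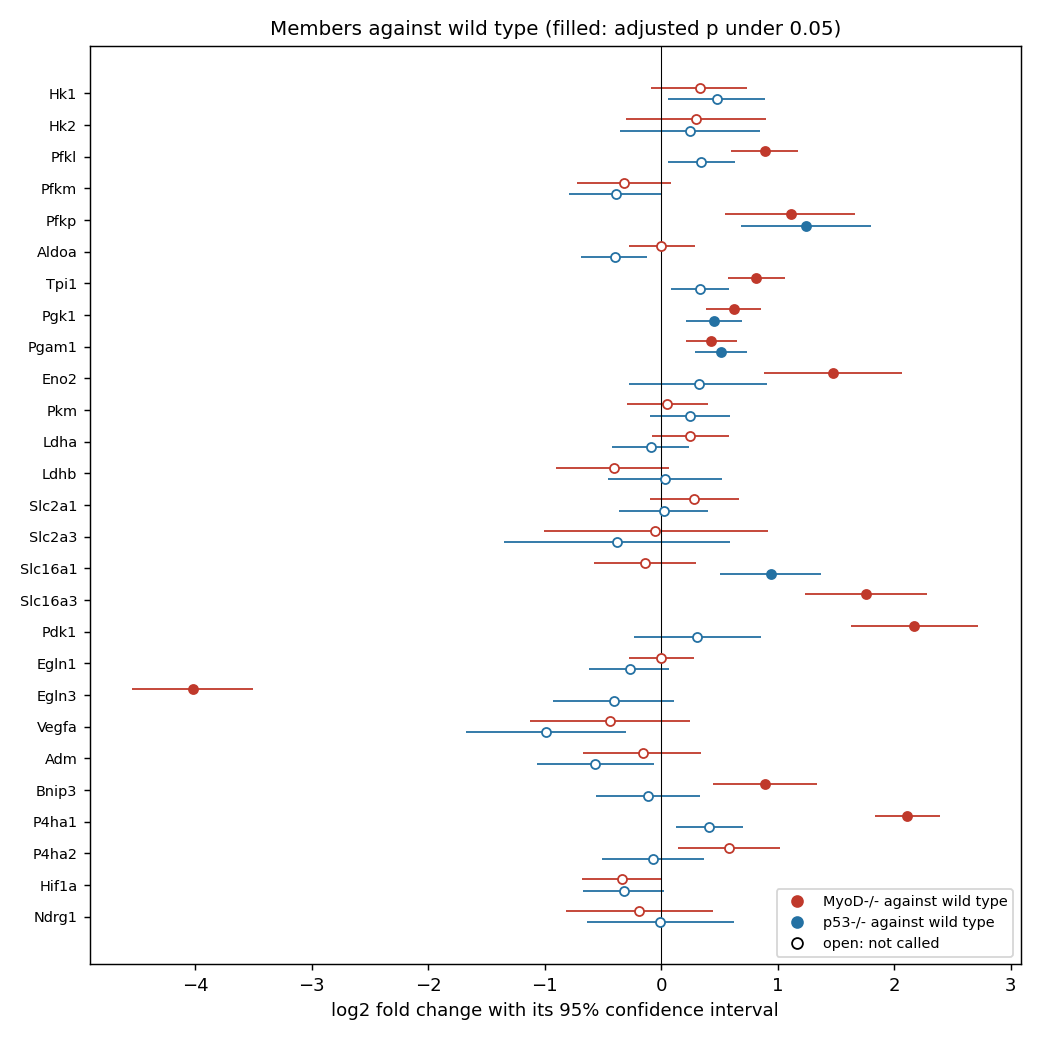
Log2 fold change of each tested member in MyoD-/- (red) and p53-/- (blue) against wild type on the horizontal axis, with 95% confidence intervals from limma. Filled points passed an adjusted p under 0.05, and in MyoD-/- they include P4ha1 at 2.11, Pdk1 at 2.17 and Egln3 at -4.02.

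Glucose enters through Slc2a1 and Slc2a3, and lactate crosses the membrane through the monocarboxylate carriers Slc16a1 and Slc16a3. Neither glucose transporter passed the test in any comparison. Slc2a1, the widespread glucose carrier, was 0.28 ± 0.17 (SE) on the log2 scale in MyoD-/- against wild type (95% interval -0.10 to 0.67, adjusted p = 0.375) and 0.02 in p53-/-. Slc2a3, a high-affinity glucose carrier, gave -0.05 in MyoD-/- with a wide interval of -1.01 to 0.92 (adjusted p = 0.971) and -0.38 in p53-/- (adjusted p = 0.656). Another Slc2a3 probe set of the same chip type gave 0.41 ± 0.28 (SE, adjusted p = 0.437) in MyoD-/-, whose arrays stood above those of wild type, and 0.09 in p53-/- (adjusted p = 0.888). The U74Av2 probe sets of Slc2a3 were below the filter and went the other way in MyoD-/-. In a fit without the filter they gave -0.33 and -0.17 (adjusted p = 0.537 and 0.758, limma). For the first, all MyoD-/- arrays stood below those of wild type.

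Slc16a3, which exports lactate from glycolytic cells, was measured on U74Bv2 alone. Its signals were 708, 696 and 643 in wild type A, B and C, 3812, 1918 and 2525 in MyoD-/- A, B and C, and 918 in p53-/- A. All MyoD-/- arrays stood above the other arrays, and the p53-/- array stood between the genotypes. The mean was 682 ± 34.9 (SD) in wild type and 2752 ± 967 (SD) in MyoD-/-, a rise of 1.76 ± 0.23 on the log2 scale (SE, adjusted p = 0.00168). On this chip type the scan days partly followed genotype, and the fold change was 2.28 with scan day as a block (adjusted p = 0.00404) and 2.28 within the day shared by wild type B and C and MyoD-/- A (adjusted p = 0.0185). For the single p53-/- array the difference from wild type was 0.36 (adjusted p = 0.566).

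The carrier Slc16a1, which moves lactate and pyruvate in either direction, showed another pattern. Its U74Av2 signals were 536, 472 and 437 in wild type, 345, 419 and 544 in MyoD-/- and 1189, 898 and 878 in p53-/-. The 3 p53-/- arrays lay above all others, and wild type and MyoD-/- overlapped. Slc16a1 was 0.94 ± 0.20 (SE) higher on the log2 scale in p53-/- than in wild type (adjusted p = 0.0148, or 0.067 without p53-/- A). MyoD-/- was lower than p53-/- by 1.08 ± 0.20 (SE, adjusted p = 0.00578), while its difference from wild type was -0.14 (adjusted p = 0.741).

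**Figure D2:**
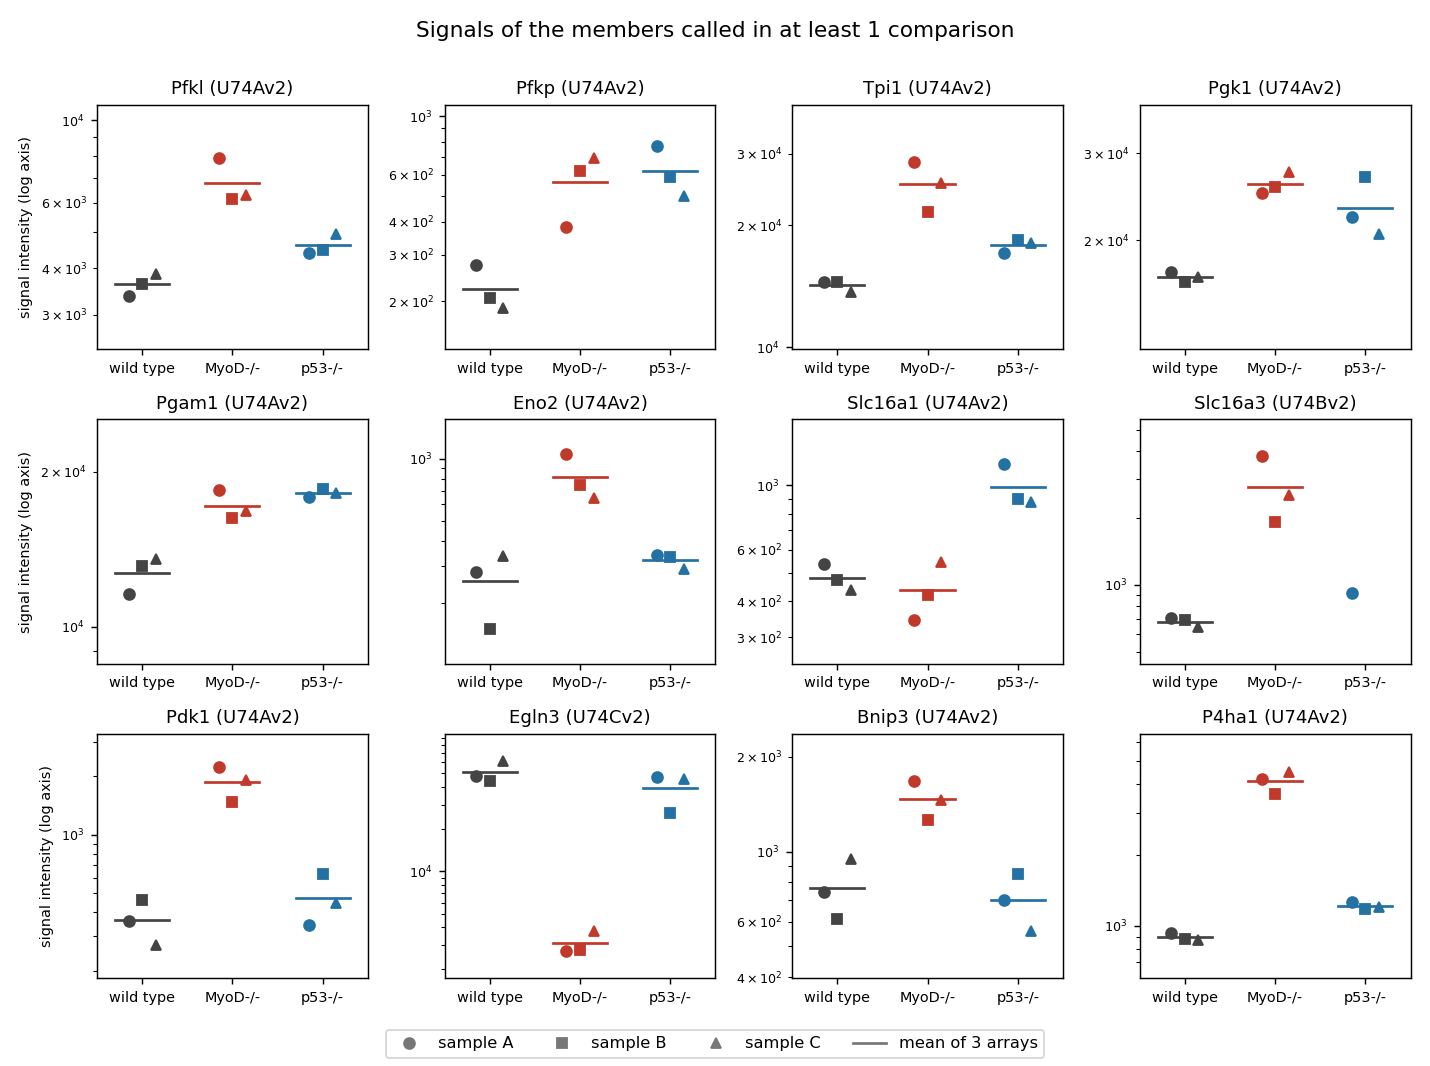
MAS5 signal (log axis) of the 12 members called in at least 1 comparison, by genotype, with 1 point per array, the marker giving the sample letter and the line the mean of 3 arrays. Pdk1, P4ha1, Slc16a3 and Eno2 have their 3 highest arrays in MyoD-/-, Egln3 its 3 lowest, and Slc16a1 its 3 highest in p53-/-.

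In the first steps of glycolysis, 3 of 7 tested members were higher in MyoD-/- than in wild type (6.14% of all genes) and 1 of 7 in p53-/- (6.06%). The hexokinases Hk1 and Hk2, which trap glucose in the cell, did not pass the test. Hk1 gave 0.33 ± 0.19 (SE) in MyoD-/- (adjusted p = 0.34) and 0.48 ± 0.19 (SE) in p53-/- (adjusted p = 0.146). Its wild-type signals of 19224, 18926 and 31155 were uneven, and without wild type C the adjusted p was 0.0349 for MyoD-/- and 0.0166 for p53-/-. Hk2, the inducible hexokinase of muscle, gave 0.30 in MyoD-/- (adjusted p = 0.572), while p53-/- gave 0.25 (adjusted p = 0.629).

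Phosphofructokinase, the committed step of glycolysis, is built from the subunits Pfkl (liver), Pfkm (muscle) and Pfkp (platelet). Signals of Pfkl were 3375, 3634 and 3865 in wild type, 7908, 6156 and 6291 in MyoD-/- and 4405, 4493 and 4957 in p53-/-. The genotypes formed separate ranges, with MyoD-/- highest and p53-/- between. Pfkl rose by 0.89 ± 0.13 (SE) on the log2 scale in MyoD-/- (adjusted p = 0.00164), and MyoD-/- exceeded p53-/- by 0.54 ± 0.13 (SE, adjusted p = 0.021). The call against p53-/- was lost without MyoD-/- A (adjusted p = 0.05), p53-/- A (0.0765) or p53-/- B (0.059). The p53-/- difference from wild type was 0.34 ± 0.13 (SE) and missed the threshold (adjusted p = 0.127).

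Pfkp signals were 274, 205 and 189 in wild type, 382, 620 and 697 in MyoD-/- and 771, 588 and 502 in p53-/-. Every knockout array exceeded every wild-type array, and the knockouts overlapped each other. In each wild-type array an Slc2a3 probe set that failed the filter read higher (292.4, 270.9 and 247.5). Pfkp therefore needed knockout arrays, where it is high, to pass the filter. Its separation, its calls and its place in the counts above are not independent of that filter. Pfkp rose by 1.11 ± 0.25 (SE) on the log2 scale in MyoD-/- (adjusted p = 0.0181) and by 1.24 ± 0.25 (SE) in p53-/- (adjusted p = 0.012). The MyoD-/- call was lost in 4 of 20 alternatives, each leaving out 1 sample (wild type B or C, MyoD-/- B or C), with an adjusted p of up to 0.0746, and the p53-/- call without p53-/- A (adjusted p = 0.0547). Another U74Av2 probe set of Pfkp gave 1.27 and 1.28. The U74Bv2 probe set of the gene gave 0.27 ± 0.27 (SE) in MyoD-/- and was not called (adjusted p = 0.614). By contrast the muscle subunit Pfkm gave -0.32 ± 0.18 (SE) in MyoD-/- (adjusted p = 0.328) and -0.39 ± 0.18 (SE) in p53-/- (adjusted p = 0.217).

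Aldoa, the aldolase of muscle and most other tissues, gave 0.00 ± 0.13 in MyoD-/- (SE, 95% interval -0.28 to 0.29). It gave -0.40 ± 0.13 (SE) in p53-/- (adjusted p = 0.073), a call in 3 of 21 alternatives, with an adjusted p of 0.0204 to 0.217. The other Aldoa probe set gave 0.17 in MyoD-/- (adjusted p = 0.439), while p53-/- gave -0.02 (adjusted p = 0.935). Its relative Aldoc, an aldolase best known from brain, was below the filter, with U74Av2 signals of 242 to 317 in wild type, 104 to 319 in MyoD-/- and 89.5 to 168 in p53-/-.

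Tpi1 interconverts the triose phosphates made by aldolase. Its signals were 14471, 14474 and 13676 in wild type, 28600, 21512 and 25466 in MyoD-/- and 17108, 18336 and 18112 in p53-/-. The ranges of the genotypes were again separate. Tpi1 rose by 0.81 ± 0.11 (SE) on the log2 scale in MyoD-/- (adjusted p = 0.00117) and stood 0.49 ± 0.11 (SE) above p53-/- (adjusted p = 0.0177), a call lost in 3 of 21 alternatives, among them without MyoD-/- C (0.0529) and without p53-/- A (0.0698). In p53-/- the difference from wild type was 0.33 ± 0.11 (SE, adjusted p = 0.0956).

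Gapdh carries out the oxidative step that follows. The control probe set for its 3' end on U74Av2 read 44046, 49263 and 54828 in wild type, 51280, 49821 and 49289 in MyoD-/- and 51386, 59584 and 45306 in p53-/-. The 3 genotypes overlapped there. On U74Cv2 the same control read 197180 to 238244 in wild type, 248268 to 261549 in MyoD-/- and 260334 to 322315 in p53-/-, with every knockout array above every wild-type array, while the genotypes overlapped for the control probe sets of its 5′ and middle portions. As a hybridisation control Gapdh was left out of the fits, and no test is given.

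In the later steps, 3 of 4 tested members were higher than wild type in MyoD-/- (6.14% of all genes) and 2 of 4 in p53-/- (6.06%). Pgk1, which makes the first ATP of the pathway, gave 17259, 16513 and 16861 in wild type, 24966, 25610 and 27438 in MyoD-/- and 22294, 26840 and 20569 in p53-/-. All knockout arrays stood above all wild-type arrays. Pgk1 rose by 0.62 ± 0.11 (SE) on the log2 scale in MyoD-/- (adjusted p = 0.00497) and by 0.45 ± 0.11 (SE) in p53-/- (adjusted p = 0.0266). The p53-/- call was lost in 8 of 21 alternatives, with an adjusted p of 0.017 to 0.0855 over them. A dimmer Pgk1 probe set on U74Bv2 gave 0.37 in MyoD-/- and was not called.

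Pgam1, the phosphoglycerate mutase of most tissues, had the signals 11582, 13143 and 13542 in wild type, 18471, 16254 and 16834 in MyoD-/- and 17878, 18532 and 18203 in p53-/-. Wild type was again the lowest group throughout. Pgam1 rose by 0.51 ± 0.10 (SE) on the log2 scale in p53-/- (adjusted p = 0.0101) and by 0.43 ± 0.10 (SE) in MyoD-/- (adjusted p = 0.0202). The MyoD-/- call was lost in 7 of 21 alternatives, with an adjusted p of 0.0138 to 0.0733.

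Eno2, the enolase isoform typical of neurons, read 280, 148 and 338 in wild type, 1057, 745 and 643 in MyoD-/- and 339, 335 and 292 in p53-/-. The MyoD-/- arrays stood above the rest, while wild type and p53-/- overlapped. Eno2 rose by 1.47 ± 0.27 (SE) on the log2 scale in MyoD-/- (adjusted p = 0.00581) and exceeded p53-/- by 1.16 ± 0.27 (SE, adjusted p = 0.0178). The call against p53-/- was lost with scan day as a block (adjusted p = 0.0559), without MyoD-/- A (0.0618) and without p53-/- C (0.0584). The last enzyme, pyruvate kinase Pkm, was bright in all genotypes and gave 0.05 ± 0.16 (SE, 95% interval -0.29 to 0.40, adjusted p = 0.89) in MyoD-/- and 0.25 ± 0.16 (SE, adjusted p = 0.369) in p53-/-. Its 3 probe sets gave 0.05 to 0.22 in MyoD-/- and 0.16 to 0.65 in p53-/-, none of them called. The value of 0.65 came from U74Cv2, where p53-/- did not overlap wild type, and it was called with scan day as a block (adjusted p = 0.015).

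Pyruvate is turned into lactate by tetramers of Ldha and Ldhb, and Pdk1 keeps it out of the mitochondrial oxidation pathway by inhibiting pyruvate dehydrogenase. Pdk1 signals were 359, 463 and 271 in wild type, 2229, 1478 and 1909 in MyoD-/- and 343, 631 and 444 in p53-/-. The lowest MyoD-/- array was above the highest array of either other genotype. The mean was 364.5 ± 96.4 (SD) in wild type, 1872 ± 377 (SD) in MyoD-/- and 473 ± 146 (SD) in p53-/-. Pdk1 rose by 2.17 ± 0.25 (SE) on the log2 scale in MyoD-/- (adjusted p = 0.00034), and MyoD-/- exceeded p53-/- by 1.86 ± 0.25 (SE, adjusted p = 0.00101). Both calls held in all 21 alternatives. Its promoter, printed with the others, held 1 hypoxia core and 1 CAGCTG.

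Neither lactate dehydrogenase subunit was called. Ldha, the subunit that favours lactate production, gave 0.25 ± 0.15 (SE) in MyoD-/- (95% interval -0.08 to 0.58, adjusted p = 0.368) and -0.09 in p53-/- (adjusted p = 0.776). Ldhb, the subunit typical of heart, gave -0.41 ± 0.22 (SE, adjusted p = 0.299) in MyoD-/-, while p53-/- gave 0.03 (adjusted p = 0.956).

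Among the genes that sense oxygen, Egln3 had the largest change of any tested member. Egln3 is a prolyl hydroxylase that marks hypoxia-inducible factors for degradation. Its U74Cv2 signals were 48323, 44282 and 61344 in wild type, 2701, 2769 and 3737 in MyoD-/- and 46853, 26138 and 45670 in p53-/-. MyoD-/- was far below both other genotypes, which overlapped. Egln3 fell by 4.02 ± 0.23 (SE) on the log2 scale in MyoD-/- (16.2-fold, adjusted p = 7.77e-06), and p53-/- gave -0.41 ± 0.23 (SE, adjusted p = 0.316). Against p53-/- the MyoD-/- level was lower by 3.61 ± 0.23 (SE, adjusted p = 1.27e-05). Within the single chip lot that held both knockouts the difference was -3.82 (adjusted p = 0.0778, 3 arrays), and with lot as a block it was -3.82 (adjusted p = 0.00462).

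A separate Egln3 probe set on U74Bv2 read 7739, 6828 and 11010 in wild type, 1208, 931 and 1304 in MyoD-/- and 7888 in p53-/- A. It too had no overlap of MyoD-/- with the other arrays. The fold change was -2.73 ± 0.20 (SE, adjusted p = 8.02e-05), and -2.70 within the scan day shared by both genotypes (adjusted p = 0.0185). The related hydroxylase Egln1, the main oxygen sensor of most cells, was not called. On U74Av2 Egln1 gave -0.25 ± 0.15 (SE, adjusted p = 0.383) in MyoD-/-, beside -0.27 ± 0.15 (SE, adjusted p = 0.31) in p53-/-. The U74Bv2 probe set gave 0.00 ± 0.12 (SE, 95% interval -0.28 to 0.28) in MyoD-/- and 0.43 (adjusted p = 0.203) in the lone p53-/- array.

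Hif1a encodes the oxygen-regulated subunit of HIF, whose level is set mainly by protein stability. Its signals were 13728, 14639 and 16855 in wild type, 11745, 11251 and 12684 in MyoD-/- and 12515, 9389 and 14641 in p53-/-. The MyoD-/- arrays were below the wild-type arrays, while p53-/- overlapped both. Hif1a gave -0.34 ± 0.16 (SE) in MyoD-/- (95% interval -0.68 to 0.01, adjusted p = 0.223) and -0.32 ± 0.16 (SE) in p53-/- (adjusted p = 0.231), neither of which passed. A closely related Hif1a probe set gave -0.28 and -0.24.

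Epas1, the second oxygen-regulated subunit, was below the filter on both of its chip types. On U74Av2 it read 178, 203 and 238 in wild type, 230, 272 and 313 in MyoD-/- and 215, 191 and 233 in p53-/-. The U74Bv2 probe set read 192, 63.5 and 171 in wild type, 386, 401 and 400 in MyoD-/- and 52.6 in p53-/- A. On U74Bv2 all MyoD-/- arrays were above the others, and on U74Av2 MyoD-/- and wild type overlapped. In a fit without the filter the U74Bv2 difference was 0.94 (adjusted p = 0.0533) and the U74Av2 difference 0.31 (adjusted p = 0.508).

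The remaining members are targets of hypoxia-inducible factors outside glycolysis, and 2 of 6 were higher in MyoD-/- (6.14% of all genes). At the probe set counted for each gene, none was higher in p53-/- at an adjusted p under 0.05 (6.06% of all genes). At an unadjusted p under 0.05 in the same limma fit, 1 was higher, P4ha1. P4ha1, the catalytic subunit of collagen prolyl 4-hydroxylase, needed for stable collagen, read 937, 881 and 869 in wild type, 4191, 3632 and 4486 in MyoD-/- and 1258, 1182 and 1203 in p53-/- on U74Av2. The 3 genotypes formed separate ranges. P4ha1 rose by 2.11 ± 0.13 (SE) on the log2 scale in MyoD-/- (adjusted p = 9.65e-06) and exceeded p53-/- by 1.70 ± 0.13 (SE, adjusted p = 3.61e-05). In p53-/- it gave 0.41 ± 0.13 (SE, adjusted p = 0.068), a call in 3 of 21 alternatives, with an adjusted p of 0.0427 to 0.18.

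Other chip types held P4ha1 too, where it was dim in wild type. Its probe sets there appear to have passed the filter through knockout arrays, where it is high. Their calls are therefore not independent support for the U74Av2 values. On U74Cv2 the signals were 196, 252 and 203 in wild type, 1257, 1285 and 1521 in MyoD-/- and 964, 389 and 862 in p53-/-, with p53-/- B apart from its group. There MyoD-/- gave 2.17 ± 0.32 (SE, adjusted p = 0.00174) and p53-/- gave 1.31 ± 0.32 (SE, adjusted p = 0.028), a call that the U74Av2 probe set did not share. Between the knockouts this probe set gave 0.86 ± 0.32 (SE) and was not called (adjusted p = 0.114), and 0.49 with chip lot as a block. On U74Bv2 it read 246, 214 and 239 in wild type, 773, 601 and 891 in MyoD-/- and 198 in p53-/- A, a MyoD-/- fold change of 1.24 ± 0.26 (SE, adjusted p = 0.0157). That value was 1.30 with scan day as a block (adjusted p = 0.114) and 1.30 within the shared day (adjusted p = 0.187). P4ha2, the other catalytic subunit, gave 0.58 ± 0.20 (SE) in MyoD-/- and missed the threshold (adjusted p = 0.0957). Against p53-/- it gave 0.65 (adjusted p = 0.0566). MyoD-/- A was the single U74Av2 array of another scan day, and with scan day as a block P4ha2 was called against wild type (0.79, adjusted p = 0.0229) and against p53-/- (0.86, adjusted p = 0.0123).

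Bnip3, which directs mitochondria to autophagy, read 746, 610 and 944 in wild type, 1676, 1260 and 1460 in MyoD-/- and 701, 852 and 559 in p53-/-. MyoD-/- stood above the other genotypes, which overlapped. Bnip3 rose by 0.89 ± 0.20 (SE) on the log2 scale in MyoD-/- (adjusted p = 0.0177) and exceeded p53-/- by 1.0 ± 0.20 (SE, adjusted p = 0.00903). The call against wild type was lost in 5 of 21 alternatives, with an adjusted p of up to 0.0749, and the call against p53-/- in none. A dim U74Cv2 probe set of Bnip3 gave 0.33 and was not called (adjusted p = 0.69).

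Vegfa, the main growth factor of blood vessels, was lower on average in both knockouts and did not pass. On U74Cv2 it read 7459, 7196 and 7409 in wild type, 4437, 6263 and 5681 in MyoD-/- and 4901, 5085 and 1917 in p53-/-. All knockout arrays were below all wild-type arrays, and p53-/- C was far below the others. Vegfa gave -0.44 ± 0.31 (SE, adjusted p = 0.456) in MyoD-/- and -0.99 ± 0.31 (SE, adjusted p = 0.0712) in p53-/-. Its U74Av2 probe set gave -0.32 and -0.52, and its U74Bv2 probe set gave -0.42 in MyoD-/-. Adm, a vasodilator peptide, gave -0.16 in MyoD-/- (adjusted p = 0.738) and -0.57 ± 0.23 (SE) in p53-/- (adjusted p = 0.151). Ndrg1, a stress-response gene, gave -0.19 and -0.01 (adjusted p = 0.759 and 0.993).

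**Figure D3:**
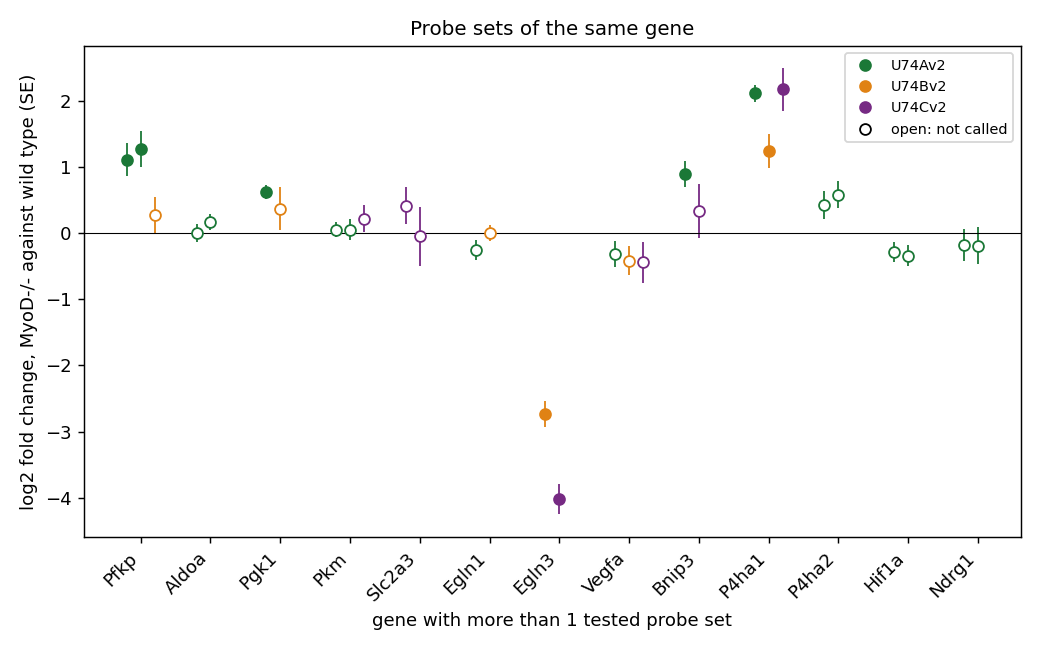
Log2 fold change of MyoD-/- against wild type (vertical axis, bars 1 SE) for each tested probe set of the 13 members that had more than 1, with colour giving the chip type and filled points the called probe sets. All probe sets of Egln3 (2) and P4ha1 (3) were called in the same direction, while 2 of 3 for Pfkp and 1 of 2 for Pgk1 and Bnip3 were called. The called Pfkp probe sets, and those of P4ha1 on U74Bv2 and U74Cv2, were dim in wild type, which limits them.

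Counted by probe set rather than by gene, 13 of 44 were higher and 2 lower in MyoD-/- than in wild type, against 4.98% and 5.66% of all probe sets. In p53-/- 6 of 37 were higher, against 4.79%. Against p53-/-, 6 of 37 were higher in MyoD-/- and 2 lower, against 6.20% and 6.77%. On U74Bv2, none of the 7 members tested in the lone p53-/- array was called by limma, against 3.71% of all genes, and at an unadjusted p under 0.05 Egln1 was the single one.

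**Figure D4:**
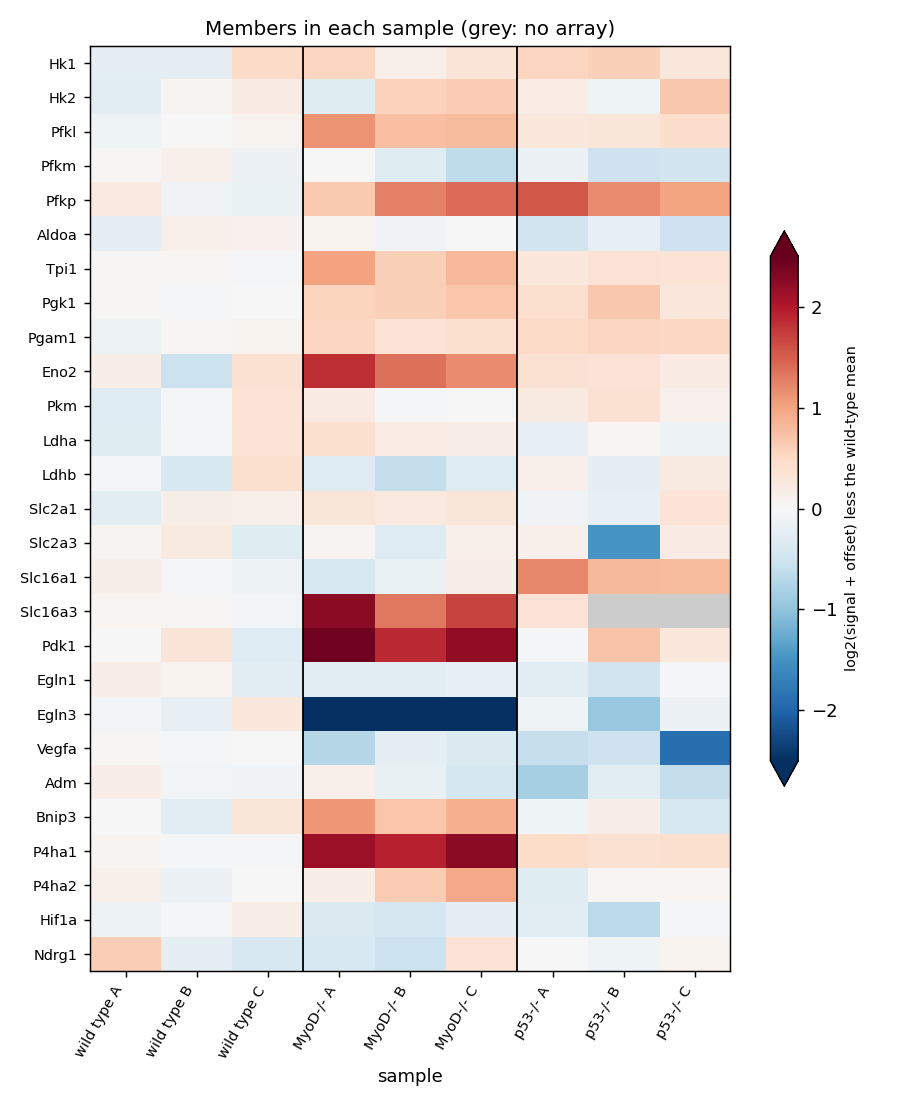
Difference of each tested member from its wild-type mean in log2(signal + offset) (colour) for the 9 samples, with grey where a sample had no array of that chip type. Each gene is shown at 1 probe set, for Egln1 that of U74Av2. P4ha1, Pdk1 and Slc16a3 are red in all 3 MyoD-/- samples, Egln3 is blue in them beyond the ends of the scale, and Pfkp is red in all 6 knockout samples.

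Genes around the set were read from lists written from general knowledge, with earlier results of these data known. Over all genes tested, 6.14% were higher and 6.82% lower in MyoD-/-, and 6.06% higher and 6.52% lower in p53-/-. These shares are the background for every list count that follows. Of 17 other tested genes of glycolysis, 1 was higher and 2 were lower in MyoD-/-, and of 13 tested in p53-/- none was higher (1 at an unadjusted p under 0.05, limma) and 2 were lower. The lower ones were the muscle isoforms Pgam2 and Eno3. Pgam2 averaged 699.6 ± 99.0 (SD) in wild type, 20.0 ± 6.38 (SD) in MyoD-/- and 12.9 ± 2.60 (SD) in p53-/-, with log2 fold changes of -3.13 and -3.25. Eno3 fell by 0.84 ± 0.12 (SE) in MyoD-/- (adjusted p = 0.00146) and by 0.45 ± 0.12 (SE) in p53-/- (adjusted p = 0.0415). Adpgk, an ADP-dependent glucokinase, rose by 1.06 ± 0.17 (SE) in MyoD-/- (adjusted p = 0.00229).

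In the pentose phosphate and glycogen list, 1 of 19 was higher and 2 were lower in MyoD-/-, and 3 of 18 were higher and 3 lower in p53-/-. Tkt, transketolase, rose by 1.22 ± 0.26 (SE) in MyoD-/- (adjusted p = 0.0142) and by 1.35 ± 0.26 (SE) in p53-/- (adjusted p = 0.0101). Taldo1, transaldolase, gave -0.70 and -1.23, and Pygm, the muscle glycogen phosphorylase, gave -2.08 and -3.65, all 4 of them calls. Of the genes that oxidise pyruvate, none of 13 was called in MyoD-/- by limma (3 higher and 1 lower at an unadjusted p under 0.05). In p53-/- 1 of 8 was called, the dehydrogenase subunit Pdha1, which rose by 0.45 ± 0.11 (SE, adjusted p = 0.0237).

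Regulators and partners of hypoxia-inducible factors showed 1 of 23 higher and 1 lower in MyoD-/-. Arnt2, a dimer partner, fell by 1.32 ± 0.23 (SE, adjusted p = 0.00713), and Os9, an endoplasmic reticulum lectin, rose by 0.74 ± 0.17 (SE, adjusted p = 0.0238). Both values came from U74Bv2, a chip type left out of the p53-/- count. Its single p53-/- array read 748 for Arnt2 and 1024 for Os9, against wild-type means of 1928 and 1418. None of 19 was called in p53-/- by limma, where 2 were higher and 3 lower at an unadjusted p under 0.05. Of 42 other genes known to be induced by low oxygen, 14 were higher and 5 lower in MyoD-/-, with a median of 0.32, and of 37 in p53-/- 6 were higher and 3 lower, with a median of 0.08. Lox, which cross-links collagen, averaged 142.4 ± 114 (SD) in wild type, 8908 ± 3684 (SD) in MyoD-/- and 329.9 ± 154 (SD) in p53-/-, a rise of 5.54 ± 0.51 (SE, adjusted p = 0.000101) in MyoD-/-. Fam162a, a mitochondrial protein, rose by 1.24 ± 0.13 (SE, adjusted p = 0.000256). The chemokine receptor Cxcr4 fell by 2.67 ± 0.22 (SE, adjusted p = 6.42e-05) and the growth factor binding protein Igfbp3 fell by 3.76 ± 0.32 (SE, adjusted p = 7.20e-05), so genes induced by low oxygen moved in both directions. Fam162a, Cxcr4 and Igfbp3 were called in the same direction in p53-/-, at 0.60, -1.37 and -2.47 (adjusted p = 0.0188, 0.0045 and 0.00165).

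Few p53 target genes of metabolism could be tested. In p53-/- 1 of 6 was lower, Sesn2, a stress-induced inhibitor of mTOR signalling, which fell by 1.11 ± 0.20 (SE, adjusted p = 0.00652). Of 11 tested in MyoD-/-, 1 was lower, the autophagy factor Trp53inp1, which fell by 2.06 ± 0.27 (SE, adjusted p = 0.00162). That value came from U74Bv2, a chip type left out of the p53-/- counts. There Trp53inp1 averaged 6001 in wild type and 1401 in MyoD-/-, and read 168.5 in the single p53-/- array. Tigar, which lowers glycolytic flux, differed between the knockouts, with MyoD-/- lower by 1.48 ± 0.39 (SE, adjusted p = 0.0298).

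Other groups of genes moved with the members, and their part in the members' changes was not tested. Of 24 tested muscle differentiation genes, 22 were lower in MyoD-/-, and 17 of 21 were lower in p53-/-. Their summed signal was 134052 to 200880 in wild type, 14375 to 20439 in MyoD-/- and 50944 to 59405 in p53-/-. Among them Stac3, needed for excitation and contraction, fell by 4.90 and Mymk, needed for myoblast fusion, by 3.63 in MyoD-/-. Of 20 DNA replication genes, none was called in MyoD-/- by limma (3 lower at an unadjusted p under 0.05), and Pcna, Mcm3 and Gins1 were higher in p53-/-. Pcna, the sliding clamp of DNA polymerase, rose by 0.67 ± 0.14 (SE, adjusted p = 0.0147).

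Myoblast markers checked the labelled cell type. Their summed signal was 115012 to 123025 in wild type, 18451 to 25201 in MyoD-/- and 69303 to 74102 in p53-/-. Of 11 markers tested in MyoD-/-, 7 were lower and 1 was higher, and in p53-/- 4 were lower and 1 higher. Des averaged 3669 ± 197 (SD) in wild type, 194.7 ± 113 (SD) in MyoD-/- and 1383 ± 476 (SD) in p53-/-, while Myf5 averaged 726.4 ± 487 (SD), 4331 ± 1469 (SD) and 5086 ± 898 (SD). Met, the gene of c-met, averaged 18067 ± 349 (SD) in wild type and 6728 ± 508 (SD) in MyoD-/- on U74Bv2. There it fell by 1.41 ± 0.12 (SE, adjusted p = 0.000149, limma). On U74Av2 Met gave 0.08 in p53-/- (adjusted p = 0.872), and MyoD-/- was 1.06 lower than p53-/- (adjusted p = 0.00965). The list includes Myod1 itself and Chrna1, a receptor subunit that is also in the muscle differentiation list. Myod1 averaged 40932 in wild type and 4843 in MyoD-/-, and Chrna1 averaged 49928 and 1864, so these genes held most of the summed signal in wild type.

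Markers of other cells were read in the same way. Of 7 fibroblast markers tested, 3 were higher in MyoD-/-, and their summed signal was 36278 to 52454 in wild type, 67548 to 70430 in MyoD-/- and 39167 to 57379 in p53-/-. The higher ones were Col1a1, Twist2 and S100a4, the median log2 fold change over the 7 was -0.07, and S100a4, at 23746 in wild type and 45359 in MyoD-/- on average, held most of the rise in the sum. Col1a1, a collagen chain modified by the P4ha enzymes, averaged 994.4 ± 209 (SD) in wild type and 4950 ± 230 (SD) in MyoD-/-, while Col1a2 averaged 3640 ± 105 (SD) and 3474 ± 277 (SD). Of 5 smooth muscle markers tested in p53-/-, 3 were lower, and their summed signal was 3438 to 5509 there, against 9413 to 24546 in wild type and 14461 to 27272 in MyoD-/-. The lower ones were Acta2, Smtn and Des, and Des is also in the myoblast list. In MyoD-/- 1 of 6 was lower, again Des, and 0 were higher by the same rule. Between the knockouts 3 of 5 were higher in MyoD-/- and 1 lower, against 7.66% and 8.43% of all genes. Of 4 macrophage and leukocyte markers 1 was higher and 1 lower in MyoD-/-, none of 2 endothelial and 3 Schwann and neural markers was called in MyoD-/- by limma (1 endothelial marker lower at an unadjusted p under 0.05), and no adipocyte marker passed the filter. Summed signals of the macrophage list were 9100 to 15126, 10371 to 12892 and 10456 to 13691 in wild type, MyoD-/- and p53-/-, those of the endothelial list 1114 to 5582, 1437 to 1741 and 2127 to 2355, and those of the Schwann and neural list 1548 to 2123, 1681 to 1752 and 1720 to 1928.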

How the data were processed

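Signals were MAS5 intensities on a linear scale, which the authors made with MAS5 per the submitters' processing notes (version not given in the sources used here), and they were used as deposited. Values became log2(signal + offset), the offset being the 20th percentile of a chip type's signals (66.98 on U74Av2, 145.7 on U74Bv2 and 106.6 on U74Cv2), so fold changes of dim genes are understated. Testing required a signal above the 40th percentile of its array on 3 or more arrays, and 198 control probe sets were left out. limma 3.58.1 (R 4.3.3, eBayes with a trend) fitted genotype per chip type. The two-sided p-values of each contrast went through Benjamini-Hochberg adjustment across every tested probe set of its chip types. Calls had an adjusted p under 0.05. A fold change written for a knockout is against wild type unless said otherwise.

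Each gene was counted once, at whichever tested probe set ranked highest on average within its arrays. Of the probe sets that were no controls, 29131 had 1 gene symbol in the platform annotation, 724 had several and 6846 had none. Every tested member was to be named. Values on each array were given for up to 5 called members per role with the smallest adjusted p, and for Gapdh, Hif1a, Epas1 and Vegfa. Of each other list, up to 4 called genes per comparison could be named. The members and lists were chosen with earlier results of these data known. Arrays carry no counts, so their number limits the precision, and an exact permutation test of 3 arrays against 3 cannot go below p = 0.1. The sample letters were not taken as pairs, because the correlation of deviations between same-letter arrays of different genotypes was -0.119 to 0.126 and exceeded 0.1 in 1 of 21 pairs. Alternatives varied the offset, filter, normalization, variance model, adjustment, chip types, blocks and samples. The procedure was tested on simulated data. Promoter sequences came from RefSeq (GRCm38.p6).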

Additional observations from a re-analysis of the deposited data

How the results depend on the processing

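No result turned its direction while called. Of 22 alternatives, with 1764 values for single members, 35 lost a call and 23 gained one. The calls of Pdk1, P4ha1, Egln3, Slc16a3, Pfkl, Tpi1, Pgk1 and Eno2 in MyoD-/- against wild type held in all the alternatives that gave them a value, as did that of Pgam1 in p53-/-. The shares of all genes called under the alternatives are not given, so the counts that follow have no background beside them. Members called in p53-/- fell from 4 to 2 with the stricter filter, which left 21 members, and leaving out 1 sample gave 1 (without p53-/- A) to 5. Between the knockouts, chip lot as a block could be fitted for the 7 members of U74Cv2 alone and called 1 of them, as many as without the block, and leaving out 1 sample gave 6 to 9 of 26. In MyoD-/- against wild type leaving out 1 sample gave 8 to 11. With the replicate block the counts were 10 in MyoD-/-, 3 in p53-/- and 8 between the knockouts, and the letters did not pair the samples. The median of members in p53-/- was -0.01 with the stricter filter, 0.06 after quantile normalization and 0.25 on U74Av2 only, and leaving out 1 sample gave -0.03 to 0.15. Over those 7 members the median between the knockouts was 0.28 with chip lot as a block and 0.41 without it, and over all 26 it was 0.08 to 0.26 leaving out 1 sample, and in MyoD-/- it was 0.15 to 0.41. Within the shared scan day and the shared chip lot, alternatives chosen after seeing the data, Slc16a3 kept its call and Egln3 lost its call against p53-/- on 3 arrays. The cause of the other changes was not tested. Few arrays and signals near background limit Slc2a3, Bnip3 on U74Cv2, Aldoc and Epas1. Low wild-type signals also limit Pfkp, Eno2, and P4ha1 on U74Bv2 and U74Cv2.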
